A study of Mus musculus with 2 samples.

Results

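The genes described here encode the phagocyte NADPH oxidase, the inducible nitric oxide synthase and the mitochondrial arginase, in cultured bone marrow-derived macrophages from calpain-6-deficient mice (Capn6-Ko) and calpain-6 wild-type mice (Capn6-Wt). There are 6 of them, Cybb, Cyba, Ncf1, Ncf4, Nos2 and Arg2, among 20660 genes named on the array. They were chosen by name, as the genes whose RefSeq accession stands on a non-control probe, which gave 7 of 55681 probes and 8 spots per array. All 6 were measured, that is, well above background on both arrays, as were 12875 of the 20660 genes.

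Each genotype was 1 Agilent array of Cy3-labelled RNA, so there are no replicates, no test and no p-value, and every difference describes these 2 RNA pools. Marrow cells flushed from the femurs of male mice had been grown in 10% serum with M-CSF at 50 ng/mL, which makes marrow cells into macrophages, and with TNF-α, an inflammatory cytokine, at 10 ng/mL. Both genotypes received both factors, so neither array shows a culture without TNF-α. The labels give day 3 and day 4 of culture in different fields. Cells of 4 mice were pooled, and whether that is the number per genotype is not stated.

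The phagocyte NADPH oxidase moves electrons from NADPH across a membrane to oxygen and so makes superoxide, which phagocytes use against microbes. Its core is a membrane heterodimer of gp91phox (Cybb) and p22phox (Cyba). On activation cytosolic subunits, among them p47phox (Ncf1) and p40phox (Ncf4), join it together with the small GTPase Rac. Nos2 makes nitric oxide from arginine and is induced in mouse macrophages by interferon-γ with bacterial products or TNF-α. Arginases split the same amino acid into ornithine and urea, Arg1 in the cytosol and Arg2 in mitochondria.

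The region around the transcription start is shown for Cybb, Ncf1 and Cyba. These are the 3 of 6 members with a window in the RefSeq promoter table used (GRCm38.p6). Each window holds 250 bases before the start and 50 after it, 5′ to 3′ on the strand of the gene, which is the minus strand for all 3. Capitals mark matches to any of 6 motifs on either strand. The motifs were GAGGAA (the core bound by PU.1, a myeloid factor), TTCNNNGAA (GAS, an interferon-γ response element), GAAA, any 2 bases and GAAA (ISRE, bound by interferon regulatory factors), GGGA, any 4 bases and CC (a form of the kappa B site of NF-kB), TGANTCA (AP-1) and TATAAA.
Cybb, chrX:9469275-9469574: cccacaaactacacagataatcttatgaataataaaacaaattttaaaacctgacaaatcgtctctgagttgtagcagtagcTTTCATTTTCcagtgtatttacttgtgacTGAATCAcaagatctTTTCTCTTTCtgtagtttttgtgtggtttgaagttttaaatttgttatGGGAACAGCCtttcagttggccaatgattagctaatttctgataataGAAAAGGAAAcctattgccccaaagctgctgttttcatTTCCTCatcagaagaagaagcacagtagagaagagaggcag
Ncf1, chr5:134229576-134229875: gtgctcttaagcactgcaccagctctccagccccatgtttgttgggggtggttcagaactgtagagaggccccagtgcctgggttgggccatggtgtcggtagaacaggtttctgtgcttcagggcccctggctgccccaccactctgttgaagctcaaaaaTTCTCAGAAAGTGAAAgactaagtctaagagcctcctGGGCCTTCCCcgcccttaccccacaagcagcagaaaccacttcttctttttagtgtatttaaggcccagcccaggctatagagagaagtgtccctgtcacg
Cyba, chr8:122432891-122433190: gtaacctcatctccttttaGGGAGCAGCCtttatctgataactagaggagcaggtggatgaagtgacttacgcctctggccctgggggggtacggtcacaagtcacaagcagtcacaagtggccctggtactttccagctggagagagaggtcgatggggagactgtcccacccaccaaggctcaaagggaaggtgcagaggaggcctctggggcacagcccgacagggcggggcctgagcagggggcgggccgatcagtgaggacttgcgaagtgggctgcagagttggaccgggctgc

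The Cybb window held 3 ISRE matches, at -168 to -159, -124 to -115 and -29 to -20 relative to the start, and 1 each of the PU.1 core (9 to 14), the kappa B form (-76 to -67) and AP-1 (-139 to -133). The Ncf1 window held 1 ISRE match at -82 to -73, which overlaps a GAS match at -88 to -80, and a kappa B match at -51 to -42. The Cyba window held a single kappa B match, at -231 to -222, and none of the other letters searched. Of 32851 promoter windows of the same length, 3.44% held an ISRE match, 28.3% the PU.1 core, 8.3% GAS, 20.7% the kappa B form, 7.81% AP-1 and 13.6% TATAAA. The windows also differed in base composition, with 35.3% G and C in Cybb, 54.0% in Ncf1 and 60.7% in Cyba. A match is a run of letters, not a site shown to be bound. Whether any match or the base composition bears on the genotype differences was not tested.

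The 2 arrays detected similar numbers of spots. Spots well above background numbered 31304 of 59305 (52.8%) in Capn6-Ko and 30656 (51.7%) in Capn6-Wt, and none was saturated. Capn6, the targeted gene, was not well above background on either array (signals of 8.65 in Capn6-Ko and 3.93 in Capn6-Wt, 1 spot each), so it does not check the labels, and where its probe lies relative to the deletion is not stated. Signals are processed intensities on a linear scale, with background already subtracted. A ratio to the local background compares the subtracted signal with it, so a ratio under 1 does not put a spot below background. Differences are log2, Capn6-Ko minus Capn6-Wt, after each array was set to its 75th percentile (372 in Capn6-Ko and 377 in Capn6-Wt). The error printed with a log2 difference is the SD that replicated spots at the same level give for that number of spots. The scanner software's own error is mostly larger and is given beside it where the result turns on it. Both cover spotting and scanning only, not mice, culture or labelling.

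Between the genotypes the oxidase subunits differed little, with Cybb the furthest and higher in Capn6-Ko by 1.16-fold, while Nos2 and Arg2, the dim members, were lower by 1.17-fold and 1.26-fold. Of the 6 members, 3 were higher and 3 lower, with a median of 0.04, against -0.006 over all measured genes. Counts use a log2 difference of 0.32 in size, and past it 1 member (Arg2) was lower and none was higher. Of the 12875 measured genes 8.16% lay past that size in either direction (2.64% higher, 5.52% lower), so 1 of 6 is no result about the group. No member reached 1.5-fold, which 1.58% of all genes did, or 2-fold (0.0932%). In whole cultures, fewer cells of a type and less RNA per cell cannot be told apart.

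**Figure D1:**
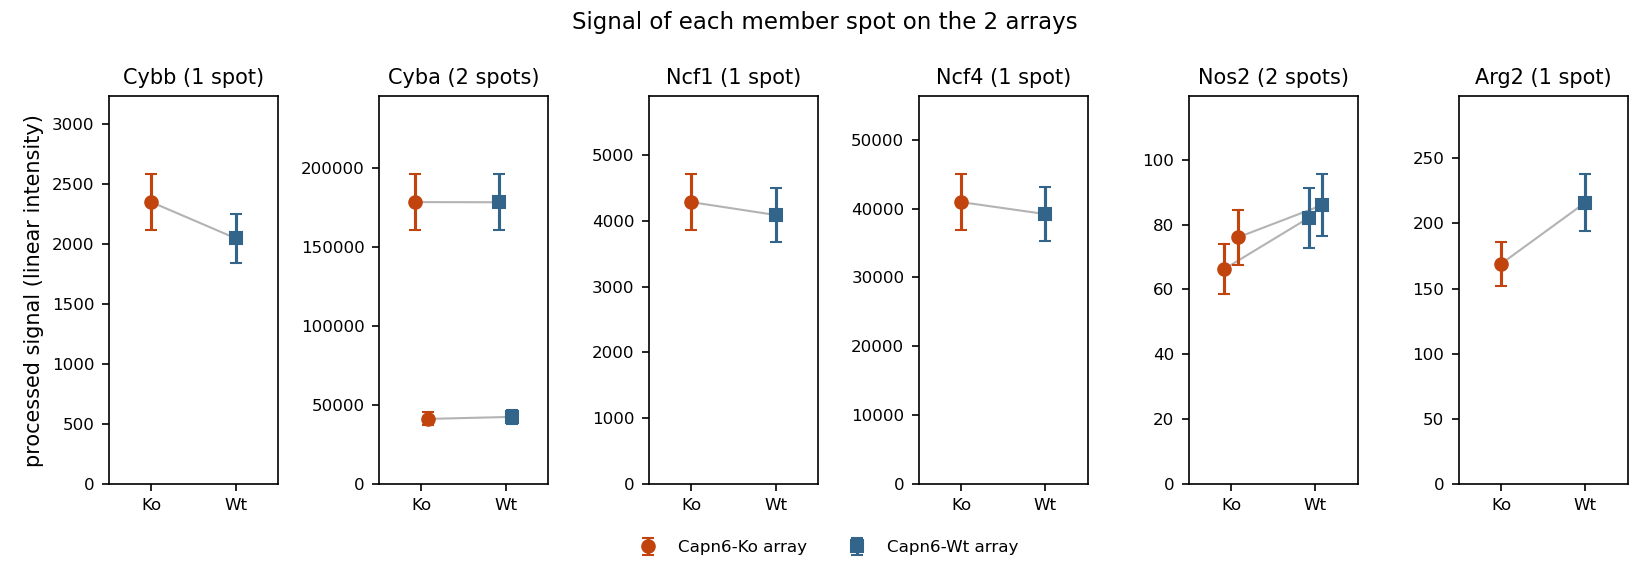
Processed signal (linear intensity, axis from 0, a scale per gene) of each of the 8 member spots on the Capn6-Ko array (left, circles) and the Capn6-Wt array (right, squares), with the scanner software's signal error as bars and a line joining the same spot. Cybb was at 2350 in Capn6-Ko and 2048 in Capn6-Wt, the 2 Cyba probes differed by 0.02 and -0.03 on the log2 scale, and both Nos2 spots and the Arg2 spot were lower in Capn6-Ko.

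Cybb encodes gp91phox, the catalytic subunit that holds the haems and the NADPH site. Its single spot read 2350 on the Capn6-Ko array and 2048 on the Capn6-Wt array, which is 81.0 times the local background in Capn6-Ko and 73.1 times in Capn6-Wt. The Capn6-Ko spot was the higher, by 0.22 ± 0.056 on the log2 scale, which is 3 to 4 times the spot SD but close to the software's own error of 0.20. Among the 1447 measured genes within 0.5 log2 units of its level, the SD of the differences was 0.102, 98.0% had a lower difference, and 0.691% were higher by at least 0.32. Over all settings of the processing Cybb ran from 0.15 to 0.28, above 0 each time. The settings of outliers, filters, probe choice and value table could not move it, since it has 1 unflagged spot.

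Cyba encodes p22phox, the smaller membrane subunit, which carries the docking site for p47phox. One probe read 178226 in Capn6-Ko and 178144 in Capn6-Wt, and the other read 41014 in Capn6-Ko and 42302 in Capn6-Wt. The probes differed by 0.02 and -0.03, in opposite directions and each within the spot SD, and their mean was -0.004 ± 0.035. The 2 probes of the same transcript thus had signals several-fold apart within each array, so a signal cannot be read as an amount across probes. No genotype difference was detectable for Cyba at this precision.

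Ncf1 and Ncf4 encode p47phox, the organiser that is phosphorylated on activation, and p40phox, which binds phosphoinositides on the phagosome. Ncf1 read 4290 in Capn6-Ko and 4094 in Capn6-Wt. Ncf4 read 40963 in Capn6-Ko and 39218 in Capn6-Wt. Each was slightly higher in Capn6-Ko, by 0.09 ± 0.053 for Ncf1 and 0.08 ± 0.049 for Ncf4, within 2 spot SDs and inside the software's error of 0.20. They differed from each other by 0.005 ± 0.073. By the spot SD the subunits did not all differ alike, since Cybb stood 0.22 ± 0.066 above its membrane partner Cyba and 0.13 ± 0.077 above Ncf1, although the software's errors of 0.20 for Cybb and 0.14 for Cyba span that distance. A constant per array leaves such a difference between members as it is, whereas Cybb minus Cyba was 0.175 with normexp background correction and 0.233 with quantile normalization.

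Other partners of the enzyme, Cybc1, Rac1 and Rac2, differed by 0.10 or less on the log2 scale. Cybc1, the chaperone of the membrane heterodimer, read 7113 in Capn6-Ko and 7198 in Capn6-Wt (0.001 ± 0.049). Rac1 was at 0.03 ± 0.035 over 2 probes. Rac2, the Rac form of blood cells, was read by 10 spots per array, 9748 to 10880 in Capn6-Ko and 9204 to 10500 in Capn6-Wt. The spot ranges overlapped. After scaling to the 75th percentile all 10 spots were higher in Capn6-Ko, and the mean was 0.10 ± 0.016, or 1.07-fold. The smallest spot difference, 0.015, came from signals of 9860 in Capn6-Ko and 9884 in Capn6-Wt, so its sign rests on the scaling. The 10 spots give Rac2 the smallest spot SD among the genes of the oxidase described here.

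Of 20 genes in the list of oxidase partners and assembly, which holds Rac activators, kinases and the proton channel, all 20 were measured. Their median was 0.03, with 15 higher and 5 lower, and the median turned to -0.03 when the arrays were centred on macrophage genes. Only Tiam1, a Rac exchange factor, lay past 0.32, at 0.35 ± 0.165 (88.9 in Capn6-Ko and 70.5 in Capn6-Wt, 1 spot). Its software error was 0.23.

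**Figure D2:**
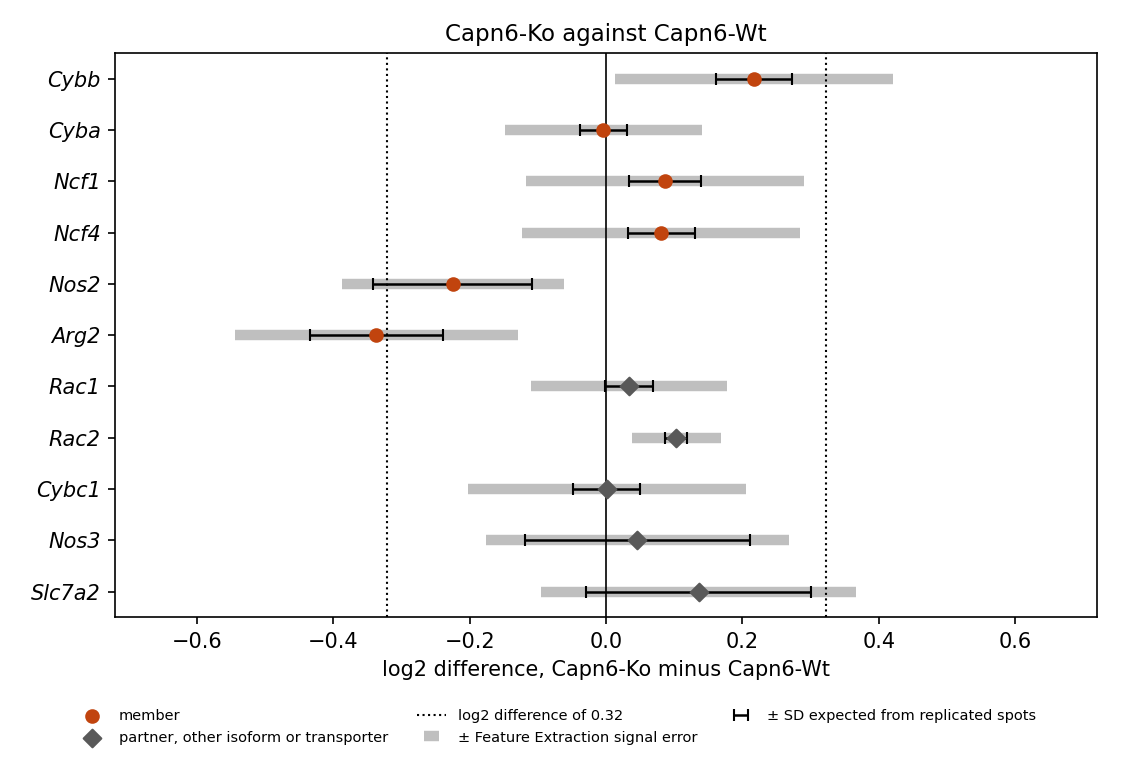
Log2 difference, Capn6-Ko minus Capn6-Wt, of the 6 members (circles) and 5 related genes (diamonds), with the SD expected from replicated spots (thin bars) and the scanner software's error (wide grey bars). Dotted lines mark a difference of 0.32 in either direction, which Arg2 at -0.34 passes by a small margin, and Rac2 has the narrowest bars.

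The other NADPH oxidase enzymes were near or below the limit of detection. Of the 12 genes in the list of other oxidases and their organisers 10 were on the array and 5 measured, with a median of 0.03, or -0.04 after centring on macrophage genes. Nox3, Duox1 and Duoxa2 were not well above background on either array. Nox1, the oxidase of colon epithelium, had 1 of 2 probes measured, at 27.9 in Capn6-Ko and 20.8 in Capn6-Wt (0.44 ± 0.307). Its other probe was not well above background on either array. Nox4, a constitutively active oxidase of kidney and vascular cells, was well above background with 1 of 2 probes in Capn6-Ko only. That probe read 16.0 in Capn6-Ko and 7.1 in Capn6-Wt, and the Capn6-Ko value lies under 16.6, the dimmest Capn6-Wt signal counted as above background, so no fold is given. The organiser Noxo1 was further above background, at 223 in Capn6-Ko and 184.7 in Capn6-Wt (0.29 ± 0.097, beside a software error of 0.21).

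Nos2, the inducible nitric oxide synthase, was dim in both cultures. Its probe is spotted at 2 places, which read 66.3 and 76.1 in Capn6-Ko, against 82.1 and 86.0 in Capn6-Wt. That is 2.54 to 2.55 times the local background in Capn6-Ko and 3.29 to 3.31 times in Capn6-Wt. Both Capn6-Ko spots were below both Capn6-Wt spots, but the 2 spots of an array share their RNA and are no replicates. How often other probes with 2 spots show this was not counted. The difference was -0.22 ± 0.117, from -0.29 and -0.16 at the single spots, beside a software error of 0.16. Over the settings that measured it Nos2 ran from -0.29 to -0.15, with the value nearest 0 under normexp background correction. At this level the spread over genes is wide. Of 1191 genes within 0.5 log2 units of its level, 12.0% were lower by at least 0.32, the SD was 0.245, and 19.2% had a lower difference than Nos2. Nos2 is therefore not distinguishable here from the spread at its level.

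Of the other synthases, Nos1, the neuronal form, was not well above background on either array. Nos3, the endothelial form, had 1 of 2 probes measured, at 92.3 in Capn6-Ko and 90.6 in Capn6-Wt (0.05 ± 0.165). Its other probe was well above background at 6 of 10 spots in Capn6-Ko and 3 of 10 in Capn6-Wt. In the list of nitric oxide synthases, cofactor synthesis and removal, 19 of 20 genes were measured, 11 higher and 8 lower, with a median of 0.01, or -0.05 after centring on macrophage genes.

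Ddah1, an enzyme that degrades asymmetric dimethylarginine, an inhibitor of nitric oxide synthases, differed furthest in that list. Its probe has 10 planned spots, of which 7 were free of outlier flags, and averaged 27.5 in Capn6-Ko and 52.6 in Capn6-Wt. All 7 were lower in Capn6-Ko, with differences of -1.51 to -0.34, and the mean was -0.92 ± 0.116, or 1.89-fold. These signals are dim, at 0.79 to 1.24 times the local background in Capn6-Ko and 1.70 to 2.21 times in Capn6-Wt. The 3 spots with outlier flags also read lower (-0.97 to -0.84). A second probe was well above background in Capn6-Wt only, so no difference is given for it. Of all measured genes 0.101% had a lower difference, and 0.831% of the genes at a like level, where the SD of the differences was 0.325. Its relative Ddah2 was at 0.01 ± 0.097. The only other gene of this list past 0.32 was Gucy1a1, a subunit of the nitric oxide receptor, at 0.43 ± 0.307.

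Arg2, the mitochondrial arginase, was the member furthest from 0. Its single spot read 169 in Capn6-Ko and 216 in Capn6-Wt, which is 5.28 times the local background in Capn6-Ko and 7.72 times in Capn6-Wt. The Capn6-Ko spot was the lower, with a difference of -0.34 ± 0.097, more than 3 spot SDs, beside a software error of 0.21. Of 1388 genes at a like level, 5.48% were lower by at least 0.32 and 5.12% had a lower difference. Arg2 lay below 0 in each setting that measured it (-0.40 to -0.27). It fell short of 0.32 in size with normexp background correction (-0.28) and with the arrays centred on their medians (-0.27). With 1 spot, keeping outlier spots, dropping the dim filter and changing probe choice or value table returned the same value by construction. Arg2 and Nos2, which use the same substrate, differed from each other by 0.11 ± 0.152, while Cybb stood 0.55 ± 0.112 above Arg2 and 0.44 ± 0.129 above Nos2. These errors come from spot SDs alone. The software's errors were larger, at 0.20 for Cybb, 0.21 for Arg2 and 0.16 for Nos2.

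Arg1, the cytosolic arginase of alternatively activated mouse macrophages, was not well above background (4.15 in Capn6-Ko and 4.04 in Capn6-Wt), so no fold is given and Arg2 was the only arginase measured. Slc7a2, the arginine transporter linked to Nos2 activity in mouse macrophages, read 68.3 in Capn6-Ko and 63.0 in Capn6-Wt (0.14 ± 0.165). Of 18 genes for arginine supply and use, 16 were measured, 7 higher and 9 lower, with a median of -0.02, which turned to 0.05 with the arrays centred on their medians. Past 0.32 in size were Gatm, which makes the creatine precursor from arginine, at 0.53 ± 0.165 (182 in Capn6-Ko and 127 in Capn6-Wt), and Agmat, named for the hydrolysis of agmatine, at -0.37 ± 0.165 (112 in Capn6-Ko and 147 in Capn6-Wt). The software error was 0.21 for each.

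**Figure D3:**
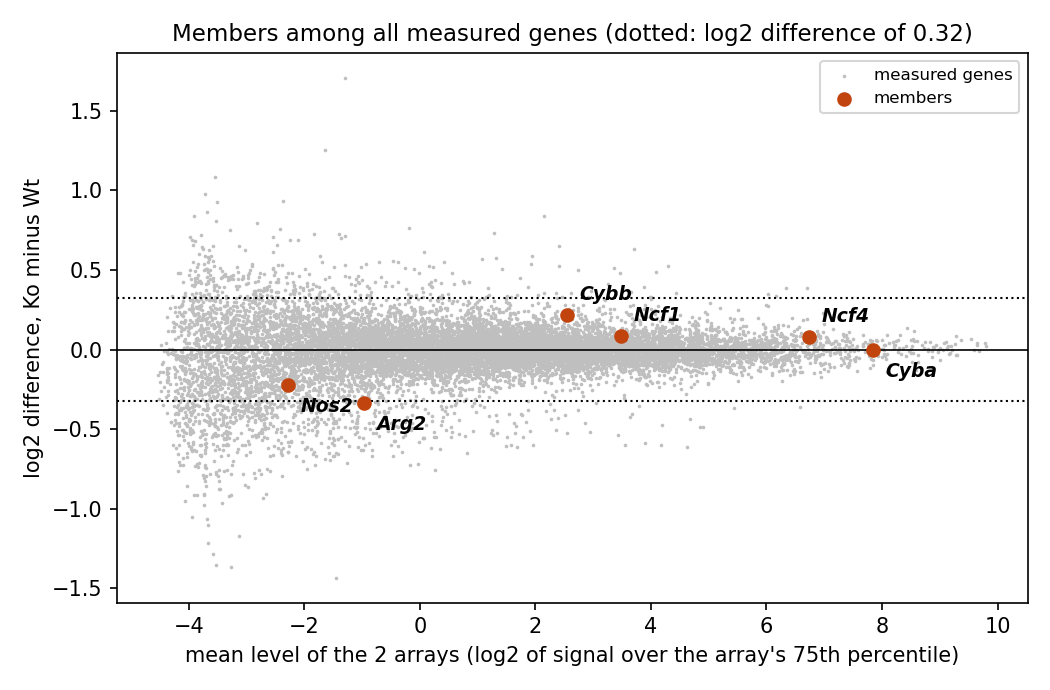
Log2 difference, Capn6-Ko minus Capn6-Wt, of the 12875 measured genes (grey) and the 6 members (red) against the mean level on the 2 arrays (log2 of signal over the 75th percentile), with dotted lines at 0.32 in either direction. The grey cloud widens to the left, where Nos2 and Arg2 lie, while Cybb lies at the upper edge of a narrower stretch.

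The enzymes that remove superoxide and peroxide were all measured, 16 of 16, with 6 higher and 10 lower and a median of -0.07, which came to -0.002 with the arrays centred on their medians. The only one past 0.32 in size was Sod3, the secreted superoxide dismutase, at -0.41 ± 0.061 (940 in Capn6-Ko and 1261 in Capn6-Wt). The software error of Sod3 was 0.20. Of 29 regulators known to act on Nos2 or oxidase genes all were measured, 18 higher and 11 lower, with a median of 0.02, which turned to -0.05 after centring on macrophage genes. The AP-1 subunit Fos was the only one past 0.32, at 0.36 ± 0.018 over 10 spots (2149 in Capn6-Ko and 1700 in Capn6-Wt). Among the list's factors for the motifs above, Spi1 (PU.1) was at 0.06 ± 0.061, Irf8 at 0.01 ± 0.049 and Irf1 at 0.02 ± 0.053, each within 1 spot SD of 0. Of the NF-kB subunits, Rela, Relb and Nfkb2 lay within 1 spot SD (-0.04 to 0.05) and Nfkb1 beyond it, at 0.09 ± 0.051. The other AP-1 subunits also lay beyond it, with Junb at 0.20 ± 0.097 and Jun at -0.06 ± 0.049.

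Of the 5 marker lists, that of stromal fibroblasts had the median furthest from 0. Of the stromal fibroblast markers 20 of 21 were measured. In Capn6-Ko 19 were lower, 15 of these by 0.32 or more. The median was -0.51 and the summed level was 169 in Capn6-Ko and 235 in Capn6-Wt, in units of the 75th percentile. Macrophage identity markers were measured for 22 genes, 16 higher and 6 lower, with a median of 0.06 and a summed level of 3608 in Capn6-Ko and 3475 in Capn6-Wt. They were uneven. Cx3cr1 at 0.59 ± 0.046, C5ar1 at 0.39 ± 0.061, Cd14 at 0.36 ± 0.053 and Aif1 at 0.36 ± 0.049 were higher by more than 0.32, Csf1r and Adgre1 were at 0.20 and 0.19, and Lyz2, Mertk, Mrc1, Ctss, Laptm5 and Lgals3 lay between -0.045 and -0.008. The software errors were 0.145 for Cx3cr1 and 0.20 for C5ar1. After centring on the macrophage median Cybb was at 0.15 and Ncf1 and Ncf4 at 0.02. Neutrophils also carry the oxidase. Their 15 measured markers, 5 higher and 10 lower, had a median of -0.05 and a summed level of 192 in Capn6-Ko and 198 in Capn6-Wt. A sum weighs bright markers most, and Csf3r (56500 in Capn6-Ko and 61150 in Capn6-Wt) made up most of this one. Retnlg and Fcnb were not well above background on either array. Others were well above it, such as Elane (1884 in Capn6-Ko and 1736 in Capn6-Wt) and Mmp8 (843.5 in Capn6-Ko and 858.5 in Capn6-Wt). The list shares S100a8 and S100a9 with the oxidase partners. Its furthest members, Chil3, which macrophages can express too, at 0.48 ± 0.053 and Ltf at 0.33 ± 0.165, were both higher in Capn6-Ko, and the lowest, Mmp9, was at -0.26 ± 0.052 over 10 spots. The software errors were 0.20 for Chil3 and 0.215 for Ltf. B lymphocyte markers (5 of 10 measured, 1 higher and 4 lower, median -0.12) summed to 4.6 in Capn6-Ko and 4.72 in Capn6-Wt. Of these markers, Cd79a, Blk and Igll1 were not well above background on either array. Dendritic cell markers (5 of 10 measured, 3 higher and 2 lower, median 0.08) summed to 236 in Capn6-Ko and 239 in Capn6-Wt. The part of these markers in the differences of Cybb, Arg2, Sod3 and Ddah1 was not tested.

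**Figure D4:**
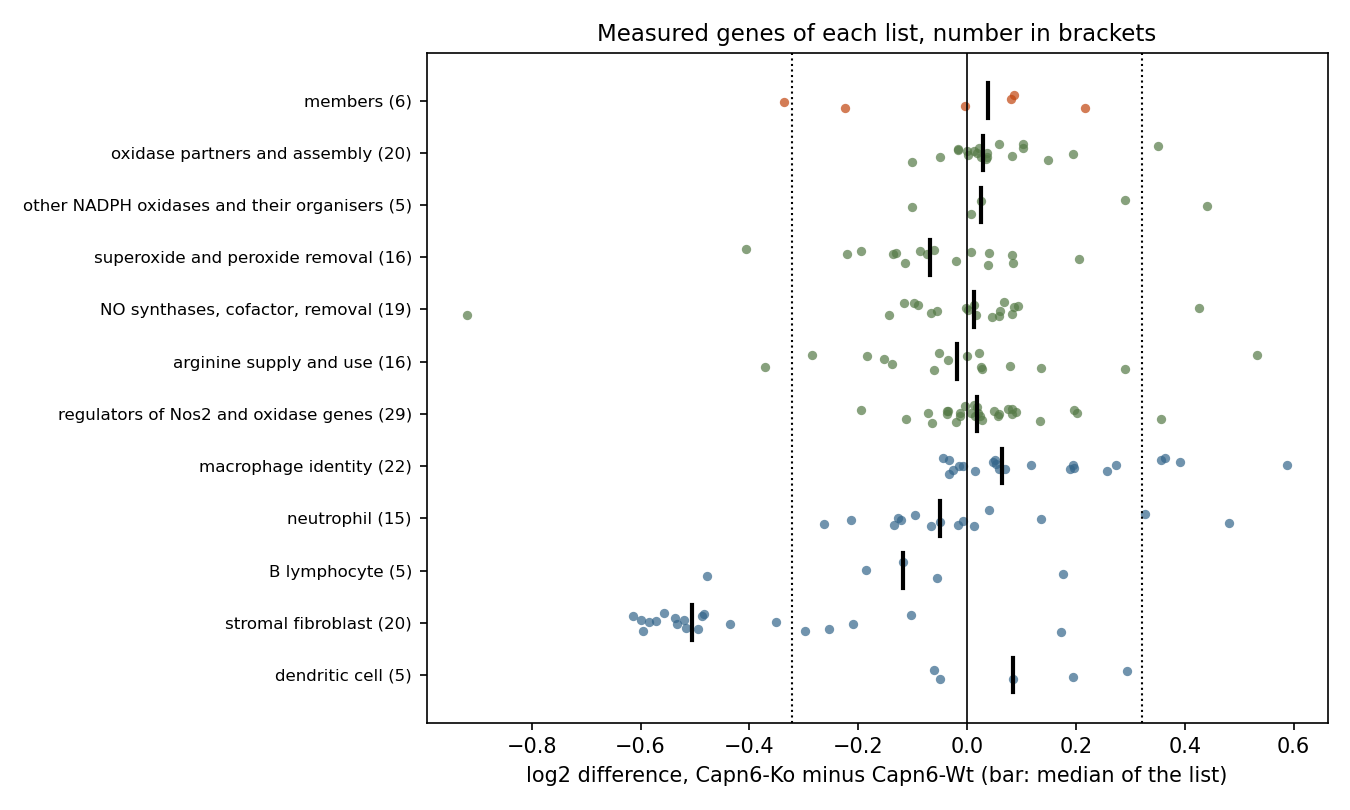
Log2 difference, Capn6-Ko minus Capn6-Wt, of each measured gene of the members (red), the 6 pathway lists (green) and the 5 marker lists (blue), 1 point per gene with a bar at the median and dotted lines at 0.32 in either direction. Pathway medians lie between -0.07 and 0.03, with the signs of those nearest 0 depending on the scaling, while the stromal fibroblast median is -0.51 and Ddah1 is the point furthest left.

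**Figure D5:**
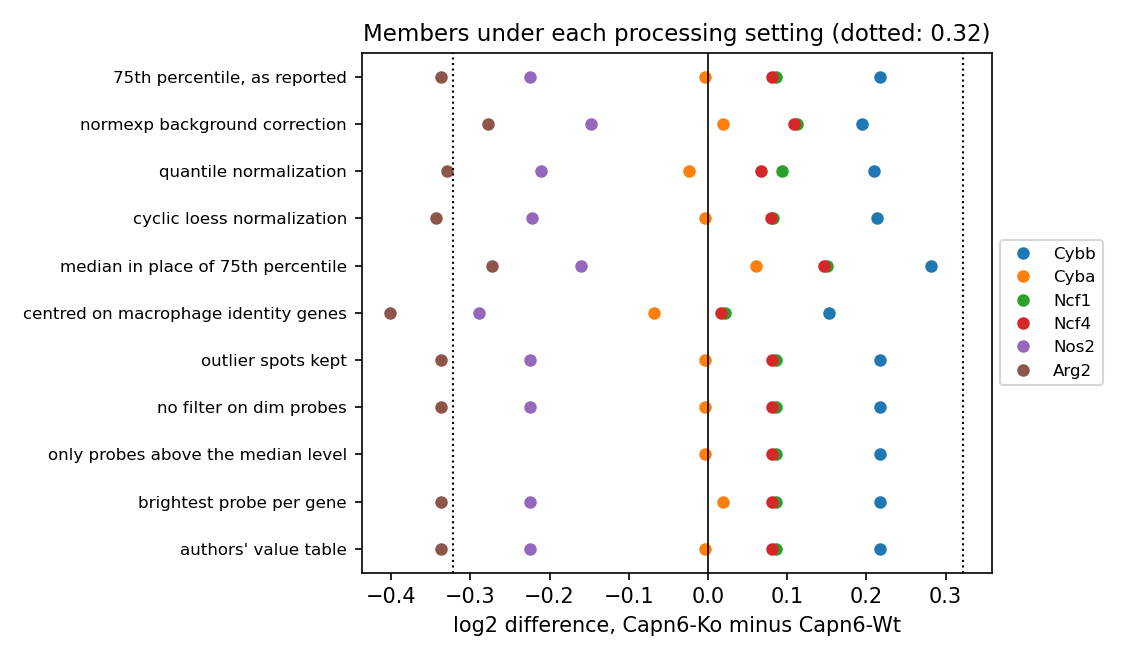
Log2 difference, Capn6-Ko minus Capn6-Wt, of the 6 members under the setting reported and 10 alternatives, with dotted lines at 0.32 in either direction. Cybb, Ncf1 and Ncf4 lie right of 0 and Nos2 and Arg2 left of 0 in each setting that measured them, and Cyba lies on either side.

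The scaling also sets how the calls over all genes split. With the 75th percentile 340 genes were higher and 711 lower by at least 0.32 in Capn6-Ko, with the arrays centred on their medians 559 were higher and 535 lower, and with centring on macrophage genes 216 were higher and 944 lower. A member near 0 can therefore take either sign, whereas the differences between members given above hold under any constant per array.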

How the data were processed

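RNA of 2 pooled macrophage cultures was read on 1-colour arrays, 1 per genotype. The values are spot intensities that the authors deposited, background-subtracted within each array by Agilent Feature Extraction (version 10.10.1.1 and mm9 annotation, per the file headers). The authors' value table is the same intensity times 2.42 in Capn6-Ko and 2.39 in Capn6-Wt (column medians 50.7 and 53.0). These constants put the 75th percentile of both columns at 901. The labels and headers name no other step behind that table.

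Control and outlier spots (136 in Capn6-Ko, 161 in Capn6-Wt) were dropped. Log2 signals were set to each array's 75th percentile and averaged over spots, then over the probes of a gene with most spots well above background on both arrays. Symbols came from a GRCm38.p6 RefSeq table (27232 of 55678 probes). Spot SDs come from 263 probes with at least 5 usable spots, in 8 level bins. With 1 array per genotype no test was possible, slide could not be fitted as a block, and the number of arrays limits precision.

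Members, lists, motifs and the count size (log2 0.32) were chosen with earlier results of these data known. Named are the members, 7 partners or isoforms, and list genes past that size (at most 4 per direction, 2 for markers, the stromal and some marker lists as counts only). Noxo1, Ddah2, the motifs' factors, further macrophage markers, Mmp9, Csf3r, Elane, Mmp8 and undetected genes were added with their values known. Normexp (offset 50) used the median signal, since the files hold no mean signal. Tools were Python 3.11.15, numpy 2.4.6, pandas 2.3.3, R 4.3.3 and limma 3.58.1, and the computation of the differences was checked on simulated arrays with known changes. The alternatives varied background correction, scaling, outliers, filters, probe choice and value table.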

Additional observations from a re-analysis of the deposited data

How the results depend on the processing

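No paired analysis was possible because each genotype has 1 array and no result comes from a test, and leaving out a replicate was likewise impossible. Under 10 alternatives, Cybb, Ncf1 and Ncf4 stayed above 0 and Nos2 and Arg2 below 0 wherever they were measured. Each of these genes has 1 probe without flagged spots. The alternatives for outliers, filters, probe choice and value table therefore returned the main value where they measured it. Nos2 and Arg2 could not be measured with only probes above the median level. The errors cover spots alone, and the spread between cultures was not measured.

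With the arrays centred on their medians, Cybb was 0.282, Cyba 0.061, Ncf1 0.150, Ncf4 0.146, 0 members lay past 0.32 in size, and 559 genes were higher by that much. List medians were then 0.095 for oxidase partners, -0.002 for superoxide removal, 0.047 for arginine, 0.082 for regulators, 0.129 for macrophage, -0.441 for stromal and 0.149 for dendritic cell genes. Centred on macrophage genes, Cybb was 0.153, Cyba -0.068, Ncf1 0.022, Ncf4 0.017, and 216 genes were higher by 0.32 or more. List medians were -0.034 for oxidase partners, -0.131 for superoxide removal, -0.082 for arginine, -0.047 for regulators, 0.000 for macrophage (by construction), -0.570 for stromal and 0.020 for dendritic cell genes. Both settings add 1 constant to every difference.

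With normexp 0 members, 81 higher and 196 lower genes were past 0.32 in size, and the stromal median was -0.403. The offset of 50 in that setting pulls dim differences towards 0. With no filter on dim probes 1667 genes were higher and 2589 lower over 20660 genes. With only probes above the median level 0 members, 73 higher and 109 lower genes were past 0.32 in size, and the dendritic cell median was 0.018. The other alternatives moved no value by more than its spot SD and no count by over 1.5 times.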

Other observations

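Some genes of arginine use and peroxide removal that did not reach a log2 difference of 0.32 differed by several spot SDs. They were picked with their values known. Slc7a1, a widely expressed arginine transporter, read 3888 in Capn6-Ko and 4797 in Capn6-Wt (-0.28 ± 0.053, beside a software error of 0.20). Of the genes at a like level 0.776% had a lower difference. Sms, the spermine synthase, was at 0.29 ± 0.039 over 3 probes, each higher in Capn6-Ko, beside a software error of 0.12. Prdx6, a peroxiredoxin, was at -0.22 ± 0.030 over 3 measured probes, each lower in Capn6-Ko, beside a software error of 0.12. Ucp2, a mitochondrial carrier that limits superoxide production in mouse macrophages, read 6008 in Capn6-Ko and 5279 in Capn6-Wt (0.20 ± 0.053). Its software error was 0.20, about the size of the difference. Hvcn1, the proton channel that balances the charge moved by the oxidase, was at -0.10 ± 0.035 over 2 probes, both lower in Capn6-Ko. That lies inside the software's error of 0.14.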
